A study of Mus musculus with 4 samples.

Results

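The DnaJ (Hsp40) proteins are the co-chaperones that bring client proteins to Hsp70, and their mRNAs were examined for binding by the RNA-binding protein IGF2BP3 in mouse testis. Members were all protein-coding genes of the GENCODE M21 annotation (mm10) whose symbol begins with Dnaja, Dnajb or Dnajc followed by a number. The rule gave 45 of 21951 protein-coding genes, of which 4 belonged to class A, 13 to class B and 28 to class C.

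IGF2BP3 eCLIP, in which UV light fixes a protein to the RNA it touches and the RNA pulled down with the protein is sequenced, was done on testes of wild type C57BL/6J mice 8 weeks old. The tissue held germ cells and somatic cells and was exposed 3 times to UV at 254 nm, with 400 mJ/cm2 each time. Each of 2 replicates had an IP library and a size-matched input library (SMInput, 2% of the lysate, taken without the antibody), which gave 4 libraries. The deposited values implied 5133438 usable reads in the IP and 8706391 in the SMInput of replicate 1, and 4637612 and 16696122 in replicate 2.

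All DnaJ proteins carry a J domain, which stimulates the ATPase of Hsp70 and so lets Hsp70 hold an unfolded client. Class A and class B members also bind clients themselves, whereas class C members share little beyond the J domain and tether Hsp70 to places such as the endoplasmic reticulum (ER), the mitochondrial import channel or vesicles. Spermatids make several members that other tissues hold at low levels, such as Dnajb3, Dnajb13 and Dnajc5g.

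A cluster was a stretch of IP reads found by the authors' peak caller, and it was counted as a significant peak where its log2(fold change) of IP over SMInput, with each library scaled to its usable reads, was at least 2 and its −log10(P value) was at least 2. All 45 DnaJ genes held a cluster in replicate 1 and 44 did in replicate 2, where Dnajc6 had none. In replicate 1, 24 of the 45 held a significant peak, where 40.8% of all protein-coding genes with a cluster did. In replicate 2, 31 of the 44 held a significant peak, beside 62.8% of all protein-coding genes with a cluster. A significant peak was present in both replicates for 21 of 44 members (47.7%), beside 39.1% of all genes with a cluster in both. On the transcribed strand, significant peaks of both replicates shared 1 base or more in 13 of 44 members (29.5%), beside 16.6% of all such genes. Of the members, 10 had significant peaks only in replicate 2, 3 only in replicate 1 and 11 in neither. The 21951 protein-coding genes, those without clusters included, gave 3254, 924 and 12959. These bases are unlike, since 14051 of the 21951 genes and all 45 members held a cluster in replicate 1. The counts are therefore not a comparison of shares. A paired fit of overlapping clusters over both replicates, added after the data were seen, tested the mean log2(fold change) of each pair against 0. With a mean of at least 2 and an adjusted P value of at most 0.05, it called 27 of the 40 members with overlapping clusters, beside 56.9% of all protein-coding genes with such clusters, and the 27 held all 13. Overlapping significant peaks have a mean of at least 2 by definition, so that the 13 were held is not separate support. Clusters, peaks and genes are not replicates.

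The members held 1024 clusters in replicate 1, of which 76 (7.42%) were significant peaks, beside 4.91% of the clusters in all protein-coding genes. In replicate 2 they held 755 clusters with 120 significant peaks (15.9%), beside 13.1% for all protein-coding genes. The median log2(fold change) of the DnaJ peaks was 2.73 in replicate 1 and 2.85 in replicate 2, a little under the 2.85 and 3.07 of all peaks in protein-coding genes. Replicate 1 had a median of 18 IP reads per DnaJ peak and replicate 2 of 9.5, where all peaks in protein-coding genes had 13 and 8. Fewer than 10 IP reads stood behind 14 of the 76 DnaJ peaks in replicate 1 and 59 of 118 with recovered reads in replicate 2, beside 29.2% and 61.8% of all peaks. The lowest SMInput read number used in the comparison was 1, which may stand for a read or for none, and 15 DnaJ peaks of replicate 1 and 22 of replicate 2 stood against it. Intervals of 95% are given for single peaks from their IP and SMInput reads, and they cover counting error only, with PCR duplicates already collapsed by molecular identifiers. Neighbouring peaks that touch can share reads.

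Most significant peaks of DnaJ mRNAs lay in the 3′UTR. Of the 76 peaks in replicate 1, 50 (65.8%, Wilson interval 54.6 to 75.5) were in a 3′UTR, 15 in coding sequence, 1 in a 5′UTR and 10 in introns. Of the 120 in replicate 2, 71 (59.2%, Wilson interval 50.2 to 67.5) were in a 3′UTR, 15 in coding sequence, 2 in a 5′UTR and 32 in introns. These intervals treat peaks as independent draws, which peaks of the same mRNA are not. Among the significant peaks of all protein-coding genes the 3′UTR share was 43.6% in replicate 1 and 37.1% in replicate 2. Per kilobase of 3′UTR, DnaJ genes held 0.558 and 0.792 significant peaks in replicates 1 and 2, and all protein-coding genes, those without any cluster included, 0.22 and 0.32. The pooled DnaJ values rested unevenly on the members. In replicate 1, Dnajc3 held 10 of the 50 3′UTR peaks, Dnajb9 held 6, Dnaja2 and Dnajc27 held 5 each, and many members held none. No member held more than 6 of the 71 in replicate 2. Within the 3′UTRs of DnaJ genes, 50 of 162 clusters (30.9%) were significant in replicate 1, beside 19.4% of the 3′UTR clusters of all protein-coding genes. The same comparison in replicate 2 gave 71 of 141 (50.4%), beside 34.4%. Coding clusters of DnaJ genes were seldom significant, at 4.64% and 5.36%, where all genes had 5.28% and 7.96%. Intron clusters stood at 1.98% and 10.3%, close to the 2.08% and 10.9% of all genes. Along the 3′UTR, DnaJ peaks were spread from end to end, with the median peak at 40.0% of the length in replicate 1 and 40.3% in replicate 2.

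A significant partner in replicate 2 was found for 31 (40.8%) of the DnaJ peaks of replicate 1, beside 32.9% for all protein-coding genes. Conversely, 34 DnaJ peaks of replicate 2 (28.3%) had such a partner in replicate 1, beside 18.4%. Reads behind DnaJ peaks and overlaps with the other replicate are given next by region. Differences between regions were not tested, and no shares of all protein-coding genes by region are given for them. The median 3′UTR peak had 18.5 IP reads in replicate 1 and 14 in replicate 2, whereas the median intron peak had 8.5 and 5. In replicate 2, 16 of the 32 intron peaks rested on an SMInput read number of 1, beside 6 of the 69 3′UTR peaks with recovered reads. Of 50 3′UTR peaks in replicate 1, 28 overlapped a significant peak of replicate 2, and 29 of 71 did so in the other direction. The same held for 1 of 15 coding peaks and 2 of 10 intron peaks of replicate 1, and for 2 of 15 and 3 of 32 of replicate 2. Across the 388 overlapping cluster pairs in DnaJ genes, significant or not, log2(fold change) values of the replicates correlated with Pearson's r of 0.61 and Spearman's rho of 0.58. This is a description of clusters that share their libraries, and over the 91053 pairs in all protein-coding genes the values were 0.64 and 0.6.

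**Figure D1:**
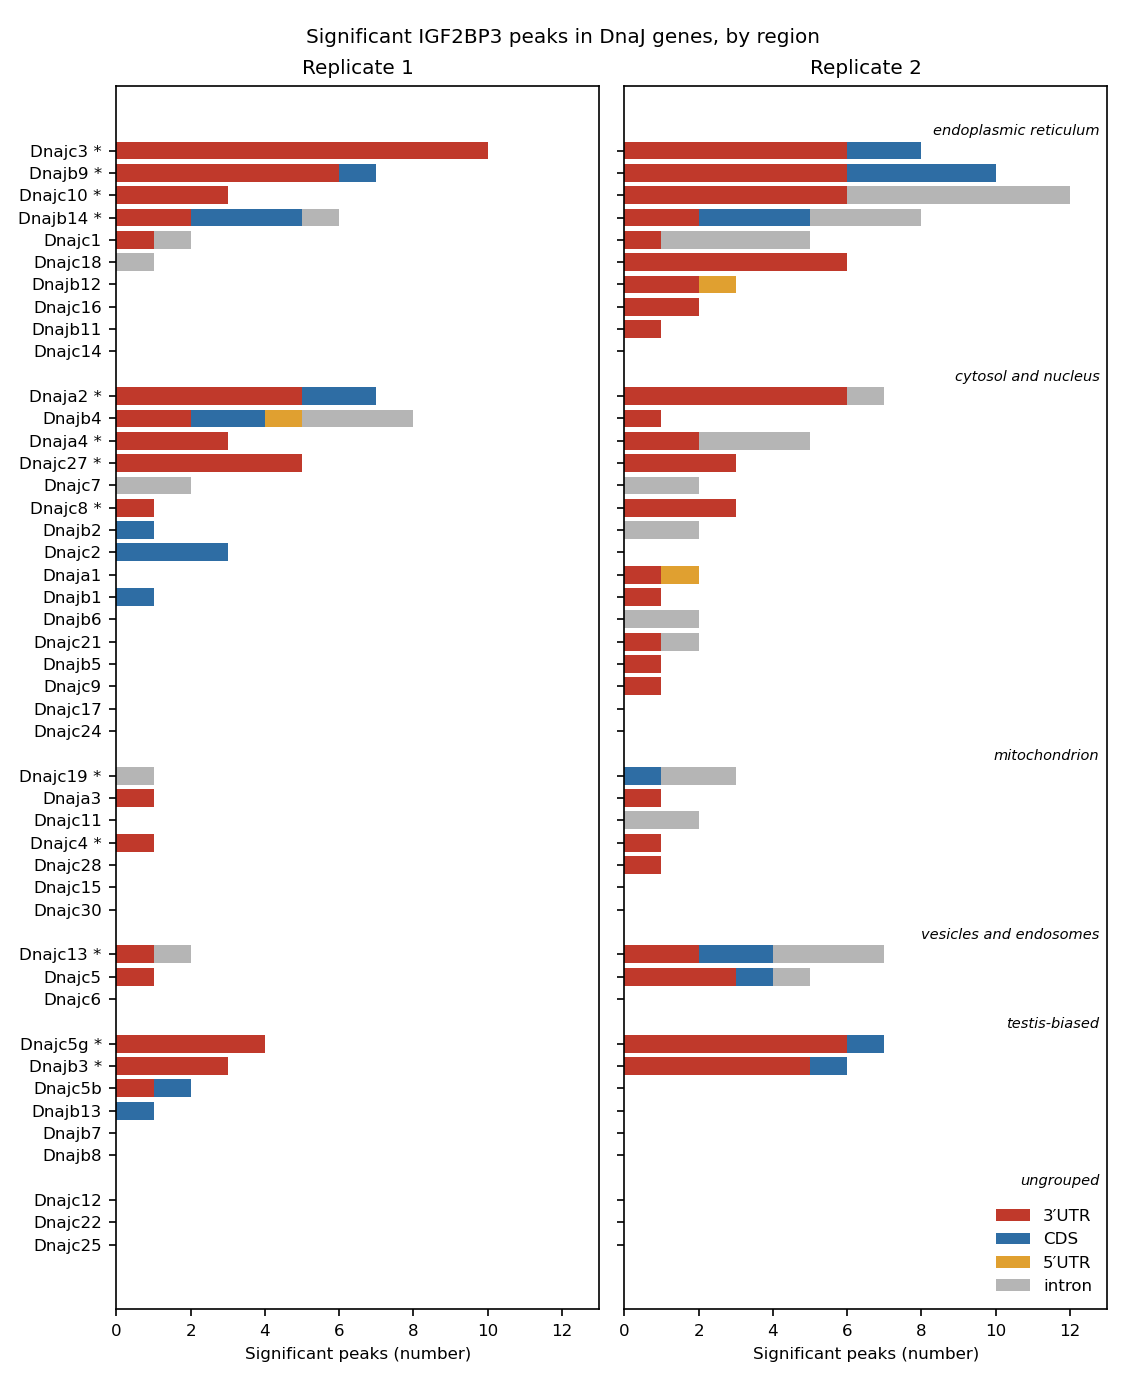
Bars give the number of significant IGF2BP3 peaks in each of the 45 DnaJ genes, with replicate 1 on the left and replicate 2 on the right, colours for the region of the transcript, genes grouped by the place of the protein, and an asterisk for overlapping significant peaks in both replicates. Dnajc3, Dnajb9, Dnajc10 and Dnajb14 of the ER and Dnaja2 of the cytosol carried the most peaks over both replicates, and 11 genes had no bar in either.

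The ER members serve the folding and disposal of secretory proteins together with the ER Hsp70 BiP, or face the cytosol from the ER membrane. Their 10 genes held 29 significant peaks in replicate 1 and 55 in replicate 2, which were 9.39% and 22.9% of their clusters, beside 4.91% and 13.1% for all protein-coding genes. Replicate 1 called 6 of the 10 genes, replicate 2 called 9 and 4 had overlapping peaks, where the shares of all protein-coding genes were 40.8%, 62.8% and 16.6%.

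Dnajb9 (ERdj4), which is induced by the unfolded protein response and helps to hand misfolded proteins to degradation, had 5 shared sites along its 1395-base 3′UTR, the most of any member. The strongest spanned chr12:44206357-44206519 (mm10, minus strand) about 470 bases past the stop codon. Its peak in replicate 1 had 62 IP reads and 1 SMInput read, and the overlapping peak in replicate 2 had 84 and 20. The log2(fold change) was 6.72 (4.18 to 12.04) in replicate 1 and 3.92 (3.20 to 4.70) in replicate 2, so both intervals lay above the threshold of 2. A second peak of replicate 1, with 55 IP reads and 1 SMInput read, touched the first. At the other 4 sites of Dnajb9 the log2(fold change) ran from 2.08 to 2.81 in replicate 1 and from 2.43 to 3.81 in replicate 2. Replicate 2 also had 4 significant peaks in the Dnajb9 coding sequence and replicate 1 had 1, and none of these overlapped between replicates.

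Dnajc10 (ERdj5), a disulfide reductase that opens misfolded proteins for export from the ER, had 3 shared sites in its 1173-base 3′UTR. At chr2:80353291-80353370 (plus strand), replicate 1 had 27 IP reads and 1 SMInput read and replicate 2 had 30 and 12. These gave a log2(fold change) of 5.52 (2.92 to 10.87) and 3.17 (2.16 to 4.27). Replicate 2 held 3 further 3′UTR peaks without a significant partner, the strongest at chr2:80353632-80353707 with 30 IP reads, 5 SMInput reads and a log2(fold change) of 4.43 (3.05 to 6.16). It also held 6 intron peaks of Dnajc10, each with 4 to 7 IP reads, whereas replicate 1 had none.

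Dnajc3 (p58IPK), an ER co-chaperone known as an inhibitor of eIF2α kinases, had the most 3′UTR peaks of any member in replicate 1, with 10 significant peaks over its 3513-base 3′UTR. Replicate 2 had 6 there, and 4 sites were shared. The site at chr14:118981149-118981242 (plus strand), 3016 bases past the stop codon, had 12 IP and 3 SMInput reads in replicate 1 and 14 and 8 in replicate 2. Its log2(fold change) was 2.76 (0.87 to 5.23) and 2.66 (1.30 to 4.12). More reads stood at chr14:118979048-118979143, with 44 and 13 in replicate 1 and 33 and 15 in replicate 2, for a log2(fold change) of 2.52 (1.60 to 3.54) and 2.99 (2.06 to 3.97). Over both replicates the significant peaks of Dnajc3 had log2(fold change) values from 2.02 to 3.43.

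Dnajb14, an ER-membrane protein whose J domain faces the cytosol, differed from these in having its shared sites outside the 3′UTR. The site at chr3:137904745-137904855 (plus strand) lay in coding sequence of exon 6 of 8 and was the only shared coding site among the members. Replicate 1 had 25 IP and 8 SMInput reads there, and the strongest overlapping peak of replicate 2 had 20 and 16. Enrichment, as log2(fold change), was 2.41 (1.21 to 3.76) and 2.17 (1.15 to 3.22). A second site in the 17216-base intron 1, at chr3:137879356-137879450, rested on 7 IP reads against 1 in replicate 1 and on 8 against 5 in replicate 2, with 3.57 (0.61 to 9.06) and 2.53 (0.73 to 4.48). The replicate 1 peak had an adjusted P value of 0.0847, so this site, unlike that in exon 6, was lost with adjusted P values and with at least 10 IP reads. The 3′UTR of Dnajb14, 8088 bases long, had 2 significant peaks in each replicate at different positions.

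The other ER members with significant peaks, described after their values were seen, had no overlapping peaks. Dnajc1, which contacts ribosomes at the ER membrane, and Dnajc18 had significant peaks in both replicates at different places. For Dnajc18 these were 1 intron peak in replicate 1 and 6 3′UTR peaks in replicate 2. Dnajb11 (ERdj3), a secreted partner of BiP, had a single 3′UTR peak in replicate 2 with 22 IP and 16 SMInput reads and a log2(fold change) of 2.31 (1.31 to 3.33). That 3′UTR, of 653 bases, is not of the transcript with the longest coding sequence, on which the peak lay outside the exons. Dnajb12, the close relative of Dnajb14, and Dnajc16 had 3 and 2 significant peaks in replicate 2 and none in replicate 1.

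**Figure D2:**
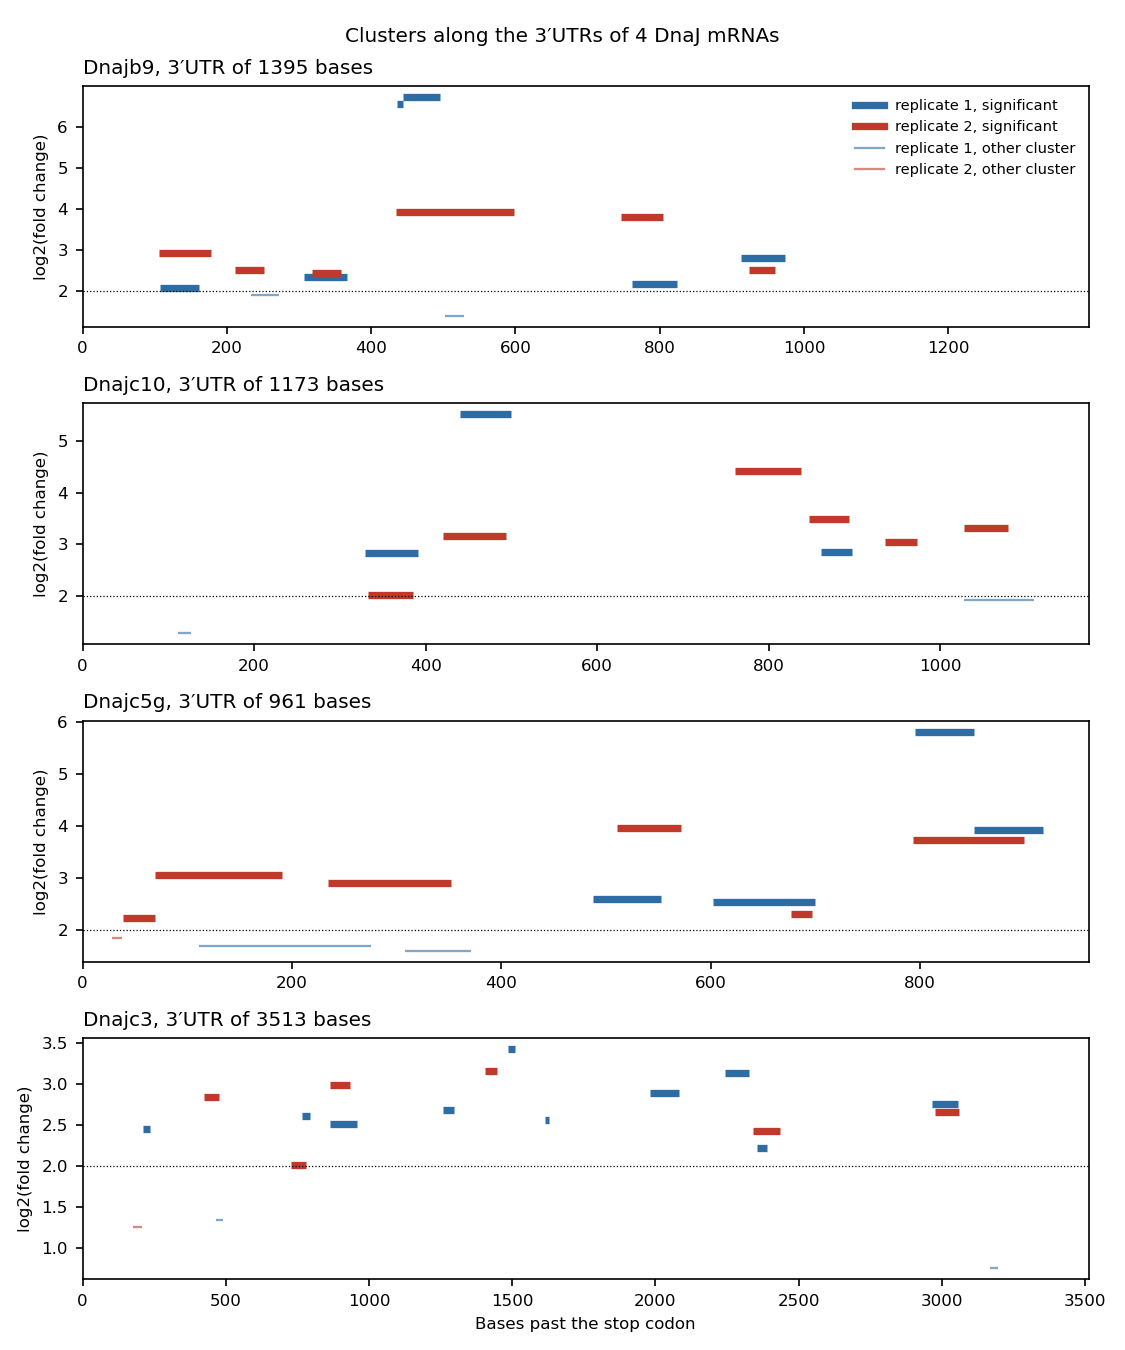
Each panel maps the clusters of a DnaJ 3′UTR by bases past the stop codon (horizontal) and log2(fold change) of IP over SMInput (vertical), with thick bars for significant peaks, thin bars for other clusters, blue for replicate 1, red for replicate 2 and a dotted line at the threshold of 2. Dnajb9, Dnajc10 and Dnajc5g each had a shared site above 5 in replicate 1 and above 3 in replicate 2, and the significant peaks of Dnajc3 lay between 2 and 3.5 along the 3′UTR. The values above 5 stood against the lowest SMInput number of 1, so their heights are uncertain.

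The cytosolic and nuclear members include the general Hsp70 partners of classes A and B. Their 16 genes held 31 significant peaks in replicate 1 and 32 in replicate 2. These were 7.81% and 10.2% of their clusters, above the 4.91% of all protein-coding genes in replicate 1 and below the 13.1% in replicate 2. Replicate 1 called 9 of the 16 genes, replicate 2 called 13 and 4 had overlapping peaks, beside the same 40.8%, 62.8% and 16.6% of all protein-coding genes.

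Dnaja2, a class A co-chaperone that refolds clients with the constitutive Hsp70 Hspa8, had 7 significant peaks in each replicate, most of them in its 1583-base 3′UTR. The site at chr8:85538737-85539041 (minus strand) joined 2 peaks of replicate 1 and 4 of replicate 2, some of which touched. Its strongest pair had 21 IP and 3 SMInput reads in replicate 1 and 34 and 10 in replicate 2, with nearly equal log2(fold change) values of 3.57 (1.83 to 5.96) and 3.61 (2.56 to 4.80). The next site, at chr8:85538654-85538721, had 30 IP and 3 SMInput reads in replicate 1 and 12 and 10 in replicate 2. Its log2(fold change) was 4.08 (2.40 to 6.44) and 2.11 (0.77 to 3.48), and the intervals of the pair of sites overlapped in each replicate.

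Dnaja4, a class A relative, had a shared site 157 bases past the stop codon at chr9:54714813-54714864 (plus strand). It had 18 IP and 7 SMInput reads in replicate 1 and 12 and 9 in replicate 2, for a log2(fold change) of 2.12 (0.80 to 3.63) and 2.26 (0.89 to 3.69). Dnajc27, which joins a Rab-like GTPase domain to a J domain, had 5 and 3 significant peaks, all in its 3672-base 3′UTR. Only the site at chr12:4110406-4110517 (plus strand), 3502 bases past the stop codon, was shared, with 19 IP and 6 SMInput reads in replicate 1 and 12 and 7 in replicate 2. The log2(fold change) there was 2.43 (1.04 to 4.04) and 2.63 (1.16 to 4.21), and the overlap was lost with the nearest transcription start site. Dnajc8, a protein found with splicing factors, shared a site at chr4:132553413-132553513 (plus strand) with 13 IP and 5 SMInput reads in replicate 1 and 9 and 8 in replicate 2. Its log2(fold change) of 2.14 (0.56 to 3.98) and 2.02 (0.47 to 3.59) made it the weakest of the 13 members with overlapping peaks. The overlap at Dnajc8 was lost with adjusted P values, with at least 10 IP reads, with the nearest transcription start site and with an overlap of at least 50% of the shorter peak. At these 3 members both intervals reached below the threshold of 2.

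Other cytosolic members, picked out after their values were seen, differed between replicates. Dnajb4 had 8 significant peaks in replicate 1, which was more than any other cytosolic member, and 1 in replicate 2, at another place. The Dnajb4 peak with the most IP reads lay in the 5′UTR at chr3:152209894-152210058 (minus strand), with 50 IP and 18 SMInput reads in replicate 1 and a log2(fold change) of 2.24 (1.43 to 3.10). It lay outside the exons of the transcript with the longest coding sequence. Dnajb1, the heat-inducible Hsp40, had a coding peak in replicate 1 and a 3′UTR peak in replicate 2, the latter with 32 IP and 26 SMInput reads and a log2(fold change) of 2.15 (1.36 to 2.95). Dnajc2, which assists new proteins at the ribosome, had 3 coding peaks in replicate 1 and none in replicate 2. Dnajc21, a factor of ribosome assembly, had its strongest peak in the 3′UTR in replicate 2, with 16 IP and 3 SMInput reads and a log2(fold change) of 4.26 (2.46 to 6.68), and no significant peak in replicate 1. Dnaja1, whose loss disturbs spermatogenesis in mice, had 2 significant peaks in replicate 2 with 5 and 11 IP reads and none in replicate 1.

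The 7 mitochondrial members held 3 significant peaks in replicate 1 and 8 in replicate 2, which were 2.48% and 12.1% of their clusters, beside 4.91% and 13.1% for all protein-coding genes. Dnajc19, which stimulates the Hsp70 of the mitochondrial import motor, had the highest value of any shared site when the lower of the replicates was taken. The site at chr3:34078864-34079054 (minus strand) lay in the 359-base intron 4, ending 18 bases before exon 5. It had 17 IP reads in replicate 1 and 14 in replicate 2, each against the lowest SMInput number of 1. The log2(fold change) was 4.85 (2.18 to 10.23) and 5.66 (2.94 to 11.06), with intervals that spanned several log2 units, so its rank is uncertain. Dnajc19 had only 4 clusters in replicate 1, of which this was the significant one, and the overlap was lost with exons alone. Dnajc4 shared a site that covered most of its 86-base 3′UTR, at chr19:6987922-6987996 (minus strand). It had 10 IP reads and 1 SMInput read in replicate 1 and 6 and 4 in replicate 2, with 4.08 (1.27 to 9.52) and 2.43 (0.36 to 4.70) as log2(fold change), and this overlap was lost with adjusted P values, with at least 10 IP reads and with the nearest transcription start site. Dnaja3 (Tid1), the mitochondrial class A member, had a 3′UTR peak in each replicate, and the peaks lay apart.

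Of the 3 vesicle and endosome members, Dnajc13 (RME-8), which works in sorting at endosomes, had a shared 3′UTR site at chr9:104152054-104152110 (minus strand). Replicate 1 had 18 IP and 5 SMInput reads there and replicate 2 had 7 and 5, for a log2(fold change) of 2.61 (1.13 to 4.39) and 2.33 (0.46 to 4.33), and the overlap was lost with at least 10 IP reads and with the nearest transcription start site. On the Dnajc13 transcript with the longest coding sequence this site lay outside the exons, and the 3′UTR is of another transcript. Dnajc5, the cysteine string protein of secretory vesicles, had a lone 3′UTR peak in replicate 1 and 5 significant peaks in replicate 2, none of them overlapping. Dnajc6 (auxilin), which uncoats clathrin vesicles, had 2 clusters in replicate 1 with at most 3 IP reads, and none in replicate 2.

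The 6 testis-biased members held 10 significant peaks among 78 clusters in replicate 1 and 13 among 64 in replicate 2, beside 4.91% and 13.1% for all protein-coding genes. A pair of them, or 33.3%, had significant peaks in both replicates, beside 39.1% of all genes. The peaks of this pair overlapped between replicates, which again made 33.3% of the members, beside 16.6% of all genes. Dnajb3 (MSJ-1), a single-exon gene expressed in spermatids, had the most IP reads of any DnaJ peak with recovered reads, namely 192 IP and 45 SMInput reads in replicate 1. This peak lay in the 218-base 3′UTR within the site chr1:88204758-88204922 (minus strand), where 3 peaks of replicate 1 and 5 of replicate 2 covered most of the 3′UTR. The log2(fold change) was 2.86 (2.38 to 3.36) in replicate 1, and the peaks of replicate 2 that overlapped it stood at 3.99 over chr1:88204864-88204910 and at 4.67 over the 12 bases of chr1:88204911-88204922, and at 2.40 (1.72 to 3.10) over chr1:88204839-88204859. The first and second of these had a −log10(P value) of 400, the upper limit of the deposited values, so their reads and intervals could not be recovered. Beside them, a pair of overlapping peaks had 104 IP and 25 SMInput reads in replicate 1 and 87 and 44 in replicate 2, for 2.82 (2.18 to 3.51) and 2.83 (2.29 to 3.39). Replicate 2 also had a Dnajb3 coding peak at chr1:88205183-88205238 with 62 IP and 46 SMInput reads and a log2(fold change) of 2.28 (1.71 to 2.86).

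Dnajc5g, the gamma form of the cysteine string protein, had 3 shared sites in its 961-base 3′UTR. At chr5:31112359-31112482 (plus strand), 823 bases past the stop codon, replicate 1 had 33 IP reads and 1 SMInput read and replicate 2 had 37 and 10. The log2(fold change) was 5.81 (3.23 to 11.15) in replicate 1 and, with a narrower interval of 2.7 to 4.91, 3.74 in replicate 2. Upstream, at chr5:31112053-31112136, replicate 1 had 25 and 7 reads and replicate 2 had 26 and 6, for 2.60 (1.35 to 4.05) and 3.96 (2.65 to 5.53). Replicate 2 alone had significant peaks in the first part of this 3′UTR, the largest at chr5:31111800-31111916 with 50 IP and 24 SMInput reads. There the clusters of replicate 1 stayed under the threshold, as the map of 3′UTR clusters shows.

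The other testis-biased members, named after their values were seen, had no significant peak in replicate 2. Dnajb13, a radial spoke protein of the sperm axoneme, had a coding peak in replicate 1 with 21 IP and 6 SMInput reads and a log2(fold change) of 2.57 (1.21 to 4.17). Dnajc5b had 2 peaks in replicate 1, each with 11 IP reads. Dnajb7 and Dnajb8 had none in either. Dnajb8 was covered well, with up to 39 IP reads in replicate 1 and 42 in replicate 2, but its highest log2(fold change) was 1.52 and 1.63, short of the threshold, at a −log10(P value) of 4.34 and 5.63. In whole testis, fewer cells of a type and less RNA per cell cannot be told apart, so read numbers of spermatid genes are not levels per cell.

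The 13 members with overlapping significant peaks held 26 shared sites, 23 in the 3′UTR, 1 in coding sequence and 2 in introns, and 7 members had a single site. The bases shared by the strongest pair at each site numbered 12 to 79, with a median of 47. Replicate 1 had the higher log2(fold change) at 14 sites and replicate 2 at 12. Overlapping peaks with both lower limits above the threshold of 2 were found in 5 members, namely Dnajb3, Dnajb9, Dnajc5g, Dnajc10 and Dnajc19. No share of all protein-coding genes is given for this criterion, so whether DnaJ genes met it more often was not tested.

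**Figure D3:**
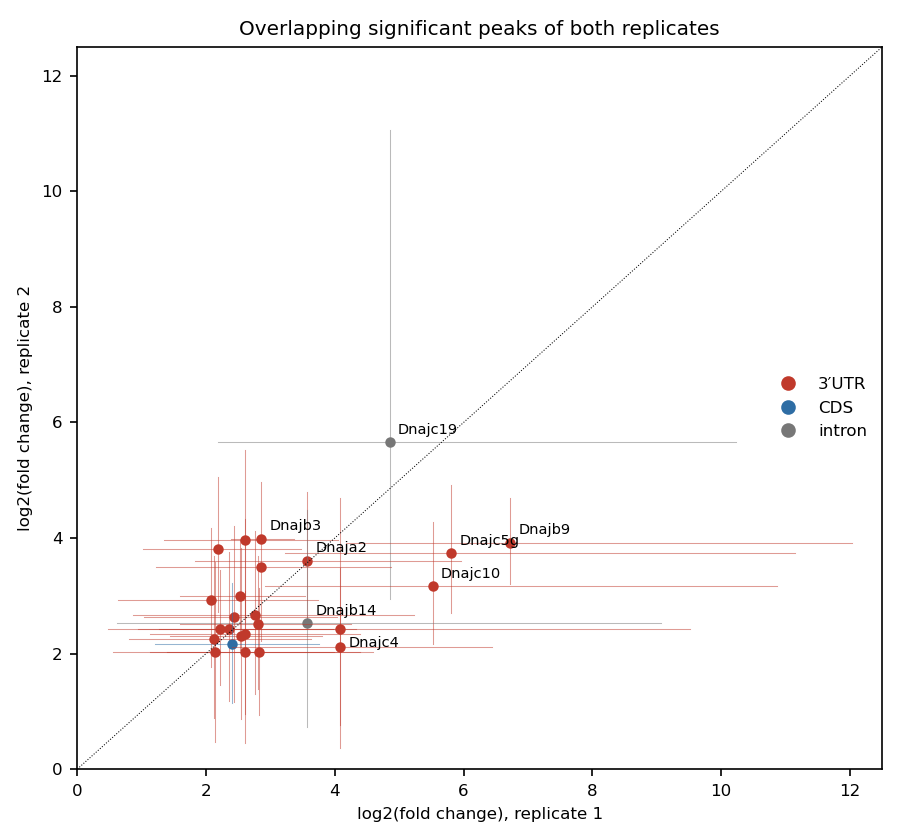
Each point is 1 of the 26 shared sites in DnaJ genes, placed by the log2(fold change) of its strongest overlapping peaks in replicate 1 (horizontal) and replicate 2 (vertical), with lines for intervals of 95% from read counts, colours for the region and a dotted diagonal for equal values. Dnajc19 was the highest site in replicate 2 and Dnajb9 in replicate 1, each against an SMInput number of 1, so these ranks are uncertain. The Dnajb3 point, drawn at the 3.99 of the wider of its overlapping peaks in replicate 2, has no vertical line because those reads could not be recovered.

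Sequences at the shared sites were read from mm10 on the strand of the transcript, 30 bases centred on the bases shared by the strongest pair. Those of the 5 members with overlapping peaks at a log2(fold change) and −log10(P value) of at least 3 are shown because these sites had the largest values. Those of Dnajb3, Dnajc3 and Dnajc27 are shown because they were the 3 of 13 such windows that held a match to DRACH, the motif in which m6A is usually placed, and capitals mark the matches. The windows lie at chr3:34078945-34078974 (minus strand) for Dnajc19, chr12:44206470-44206499 (minus) for Dnajb9 and chr5:31112374-31112403 (plus) for Dnajc5g. They lie at chr8:85538748-85538777 (minus) for Dnaja2, chr2:80353323-80353352 (plus) for Dnajc10 and chr1:88204873-88204902 (minus) for Dnajb3. They lie at chr14:118981186-118981215 (plus) for Dnajc3 and chr12:4110422-4110451 (plus) for Dnajc27. The Dnajb3 window was centred on the wider peak of replicate 2, at 3.99, and not on the 12-base peak at 4.67.
Dnajc19: tcacacacagcttctcagttgtgttgcttt
Dnajb9: gtctgaagctgtaattttgagtcatttagt
Dnajc5g: ctctcgaagctgttggcttagcatcctctc
Dnaja2: aatgggctttgcacacaatgggtttgaagc
Dnajc10: tttcagtcacctcttctaattctgtctatg
Dnajb3: cgttttcaaggGAACTctactttcaGAACA
Dnajc3: ctTGACTgtactGGACTttgctgtaggagg
Dnajc27: ctggtgcTGACCgctccctgcacattcttt

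The windows of Dnajc19, Dnajb9, Dnajc5g, Dnaja2 and Dnajc10 had no DRACH match in these 30 bases, and those of Dnajc19 and Dnaja2 held ACACA. In the wider window of 100 bases around each shared site, 22 of the 26 sites held DRACH. Such windows hold the motif often: around the 3′UTR peaks of DnaJ genes the share was 86.0% in replicate 1 and 88.7% in replicate 2, and around those of all protein-coding genes it was 84.3% and 83.1%. GGACT, a form of DRACH, was found in 16.0% and 16.9% of the DnaJ windows, beside 10.5% and 9.78% for all genes. TGGAC, which overlaps GGACT, was found in 14.0% and 16.9% beside 9.26% and 8.92%, and GAACA, also a form of DRACH, in 14.0% and 14.1% beside 8.27% and 7.68%. AAACC, another form, was in 5 of 50 and 7 of 71 DnaJ windows, beside 8.68% and 8.44% for all genes, and ACACA in 5 and 11, beside 11.9% and 10.9%. All words were searched on the strand of the transcript only, and a match is a description of the sequence.

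The 11 members without a significant peak in either replicate had 95 clusters in replicate 1 and 71 in replicate 2, and 8 of them never reached 10 IP reads in a cluster of replicate 1. Dnajc15 had the most clusters of these, 34 in replicate 1 and 25 in replicate 2. This mitochondrial inner membrane protein is the close relative of Dnajc19. Its highest log2(fold change) was 3.08 in replicate 1 and 3.43 in replicate 2, but no cluster passed both thresholds. Dnajc15, Dnajc14 and Dnajc30 were among the members called by the paired fit over both replicates. Dnajc24, which takes part in diphthamide synthesis, had 17 and 15 clusters with at most 5 and 6 IP reads. Dnajc14, an ER-membrane member, had 11 and 13 clusters with at most 11 and 9. The 3 ungrouped members Dnajc12, Dnajc22 and Dnajc25, named here after their values were seen, had at most 5 IP reads in any cluster.

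The partners of the DnaJ proteins were looked at in a list of 32 genes that hold Hsp70 proteins, their exchange factors and co-chaperones, and the Hsp90 family. Of the 31 with a cluster in both replicates, 11 (35.5%) had a significant peak in both and 6 (19.4%) had overlapping significant peaks, beside 39.1% and 16.6% of all protein-coding genes and 47.7% and 29.5% of the DnaJ members. Hsp90aa1, the inducible cytosolic Hsp90, had the strongest shared site, in its 3′UTR, with 34 IP and 5 SMInput reads in replicate 1 and 26 and 6 in replicate 2, for a log2(fold change) of 3.53 and 3.96. Hspa4l, an exchange factor of Hsp70 that is abundant in testis, had 37 and 8 reads and 40 and 23 at a 3′UTR site with 2.97 and 2.65. Bag3, another exchange factor, had a coding site with 8 IP reads against 1 and 11 against 7, at 3.76 and 2.50. St13, which steadies the client-bound form of Hsp70, had 5 overlapping pairs of significant peaks, the most in the list. The pair by which it was ranked, in the 3′UTR, stood at 2.24 and 2.18. Its 7 significant peaks in replicate 1 and 9 in replicate 2 reached 2.91 and 4.17. The testis Hsp70 Hspa1l had a coding site at 2.06 and 2.15. The Hsp70 genes Hspa2, Hspa5, Hspa8 and Hspa9, picked out after their values were seen, had no significant peak in either replicate. Their highest −log10(P value) was 16.1, 10.5, 1.61 and 3.09 in replicate 1, and 19.2, 9.37, 2.58 and 3.97 in replicate 2. Where it passed 2, the log2(fold change) was short of its threshold, so the lack of a call is not a lack of enrichment. Hspa2, the Hsp70 of spermatocytes, was the deepest of these genes, with up to 372 IP reads in a cluster of replicate 1. The highest SMInput number in its clusters was 459, which need not belong to the same cluster. Of the ER partners, Hspa5 (BiP) was thus without a significant peak, whereas the Hsp70-related Hyou1, also named after its values were seen, had a shared 3′UTR site with 45 IP and 11 SMInput reads in replicate 1 and 33 and 29 in replicate 2, at 2.79 and 2.03.

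The tissue label was checked against marker genes. All 7 spermatocyte markers and all 9 spermatid markers had clusters in both replicates, whereas the liver markers Alb, Apoa2 and Ttr had none. Overlapping significant peaks were found in 3 of the 9 spermatid markers, 1 of the 7 spermatocyte markers and 1 of the 5 spermatogonia markers, beside 16.6% of all protein-coding genes. All 6 Sertoli cell markers had clusters in replicate 1 and 5 did in replicate 2, and none had overlapping significant peaks. Nor did any of the 5 Leydig cell, 2 peritubular cell or 2 macrophage markers, all of which had clusters in both replicates. The share of germ and somatic cells in the DnaJ reads was not tested.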

How the data were processed

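IGF2BP3 eCLIP of mouse testis was taken from the authors' deposited cluster tables, 1 for each of 2 replicates, in which the IP is set against the SMInput of the same replicate. The authors trimmed reads with cutadapt, removed ribosomal RNA with Bowtie2, aligned to mm10 with STAR, collapsed duplicates by molecular identifier and called clusters with Clipper. The deposited values are the −log10(P value), 0 to 400, and the log2(fold change) of IP over SMInput scaled to usable reads. These values were used as deposited, with both thresholds at 2, and significant peaks were 16579 of 337234 clusters in replicate 1 and 28494 of 216354 in replicate 2.

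The study's methods name Fisher's exact test or, alternatively, Yates-corrected chi-square for reads over gene regions and no test for clusters, and the same tests were assumed for the cluster P values. The whole IP and SMInput reads, at least 1 each, that give both values were searched for. Clusters listed between the limits had a single solution in 99.9% and 99.7% of cases. Intervals are exact (Clopper-Pearson) on the IP share of reads, and shares have Wilson intervals. A cluster was given to each GENCODE M21 protein-coding gene whose span on the same strand held its centre, and a region to it in the order 3′UTR, coding sequence, 5′UTR, intron. Python 3.11.15, pandas 2.3.3, numpy 2.4.6, scipy 1.17.1, pysam 0.24.0 and matplotlib 3.10.9 were used.

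Genes were named by a rule: members with overlapping significant peaks, ranked by the lower of the replicates' highest log2(fold change); the 5 members with the most peaks; the 3 with the most clusters and no significant peak; and up to 5 genes of the Hsp70 list with overlapping peaks. Members and lists were chosen with earlier results of these data known. Alternatives were other thresholds, adjusted P values, a minimum of 10 IP reads, exons alone, the nearest transcription start site, clusters of a single gene, a larger overlap, another order of regions, joined peaks and each replicate left out. A replicate block, added after the data were seen, was a limma 3.58.1 fit (R 4.3.3) of the log2(fold change) of both replicates over 91053 pairs of overlapping clusters, which takes the fold and not the read numbers. IgG libraries were not among the data used and were not analysed here.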

Additional observations from a re-analysis of the deposited data

How the results depend on the processing

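With both thresholds at 3, the significant DnaJ peaks numbered 15 in replicate 1 and 29 in replicate 2, members with a significant peak in both replicates 6, and members with overlapping peaks 5, all of which were among the 13. The 3′UTR share was then 80.0% and 82.8%. The counts fell because fewer peaks pass a stricter threshold, and for the shares the cause was not tested. No share of all protein-coding genes is given for the alternatives other than the replicate block. Whether DnaJ genes stood above all genes at those settings was not tested. A looser threshold of 1 on log2(fold change) by its construction let more peaks pass, 118 in replicate 1. With at least 10 IP reads, replicate 2 had 61 peaks, since the others had fewer reads, and 78.7% of them lay in a 3′UTR, for which the cause was not tested. With a replicate left out, members with a peak in each replicate kept ranged from 24 to 31, which is also the range that replaces the count with overlapping peaks, since an overlap needs both. In 30 comparisons of a result with an alternative, the range for members with a peak in both replicates among them, counts were within 1.5 times the values given and shares within their intervals, which count peaks as independent. The members with overlapping peaks changed with the setting. Adjusted P values kept 11 of the 13 and lost Dnajc4 and Dnajc8, at least 10 IP reads kept 10 and lost Dnajc13 as well, and exons alone lost Dnajc19, whose site is in an intron. The nearest transcription start site gave 10, of which 9 were among the 13, with Dnajc4, Dnajc8, Dnajc13 and Dnajc27 lost and Dnajc7 added. The looser threshold gave 19, with all 13 among them. An overlap of at least 50% of the shorter peak gave 12 and lost Dnajc8. With the replicate block, a paired fit chosen after seeing the data, 27 members passed, all 13 among them. The overlapping peaks of the 13 met its threshold on the mean by definition. The fit sets no threshold within a replicate and does not weigh read numbers, and the cause of the larger count was not tested. Intervals are wide at few reads: fewer than 10 IP reads stood behind 14 of the 76 DnaJ peaks in replicate 1 and 59 of the 118 with recovered reads in replicate 2, while the IP totals were 5133438 and 4637612. More depth was not available to test weak sites.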
